A study of Mus musculus with 56 samples.

Results

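The genes described here are the nuclear-encoded subunits of the mitochondrial respiratory chain and of ATP synthase, read from a table of gene counts made from mouse gastrocnemius muscle. They were taken by symbol, as every gene of the Ndufa, Ndufb, Ndufc, Ndufs and Ndufv series, Sdha to Sdhd, the Uqcr series, Cox4 to Cox8 and the Atp5 series. This matched 88 rows, of which 6 were processed pseudogenes and were set aside, leaving 82 members of 15539 genes: 37 of complex I, 4 of complex II, 8 of complex III, 16 of complex IV and 17 of complex V. All 82 members passed the filter on low counts, as did 14321 genes in all. The study bred C57BL/6 mice with floxed Elavl1, the gene of the RNA-binding protein HuR, to mice that express Cre recombinase from the Mlc1f locus in skeletal muscle fibres, and compared the progeny (HuRm-/-) with littermates that carry the floxed gene without Cre (HuR fl/fl). Both sexes were kept with a locked wheel or a running wheel for 10 weeks, from week 10 to week 20 of age, and were 5 months old by their labels. This gave 8 groups of 7 mice: male controls with a locked (MC) or a running (MCE) wheel, male HuRm-/- mice with a locked (MH) or a running (MHE) wheel, and the same for females (FC, FCE, FH and FHE). All mice carried the floxed gene and ate the same chow. In whole muscle, fewer cells of a type and less RNA per cell cannot be told apart.

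The respiratory chain sits in the inner mitochondrial membrane. Complex I takes electrons from NADH and complex II from succinate, both pass them through ubiquinone to complex III and by way of cytochrome c to complex IV, and complex V uses the proton gradient so made to form ATP. Most subunits are encoded in the nucleus and imported, while a few of the core subunits of complexes I, III, IV and V are made from mitochondrial DNA, and in muscle several subunits of complex IV come in a striated muscle form and a form found in most tissues. Genes of the family are known for promoters that hold sites for NRF1, for ETS factors such as GABPA, for the estrogen-related receptors and for YY1.

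RefSeq promoters of 300 bases (GRCm38.p6) were found for 65 of the 82 members, 70 promoters in all. The cores searched on both strands were GCGCATGC for NRF1, CCGGAAG for ETS factors, CAAGGTCA for the estrogen-related receptors and AAGATGGC for YY1. The NRF1 core was present in 14.3% of the members' promoters and in 2.71% of all 32851 promoters of the same length, the ETS core in 22.9% and 8.86%, the receptor site in 5.71% and 1.56%, and the YY1 core in 12.9% and 2.75%. At least 1 of the 4 was found in 44.3% of the members' promoters, against 14.7% of all. The 5 stretches below belong to members whose levels are followed in the text, and capitals mark the core, read on the strand of the gene. The first is the NRF1 core of Sdhb at chr4:140961207-140961234 on the plus strand, followed by the NRF1 core of Cox6a1 at chr5:115349101-115349128, the ETS core of Atp5j at chr16:84835021-84835047, the receptor site of Atp5g3 at chr2:73911361-73911388 and the ETS core of Sdhd at chr9:50603879-50603905, all 4 on the minus strand.
Sdhb: agcccagtggGCATGCGCcctacgggcc
Cox6a1: ggaacggggcGCATGCGCgctctcgctc
Atp5j: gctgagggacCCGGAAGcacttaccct
Atp5g3: tgttacaaagTGACCTTGagcgtcttcc
Sdhd: cgtctcctgcCTTCCGGttcacgcttc
Such a match describes these letters and says nothing on whether a factor was bound.

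Each mouse had between 6639782 and 21633091 counts. Elavl1, the gene targeted in the HuRm-/- mice, was not lower in them: its log2 fold change was 0.13 ± 0.06 (SE) averaged over sex and wheel (limma adjusted p = 0.15) and 0.44 ± 0.11 in running males (adjusted p = 0.0242), so these animals are called the mice labelled HuRm-/- from here on. Myl1, the gene of the Mlc1f locus that carries Cre, was lower in the labelled mice by the same average (log2 fold change -0.65 ± 0.11, adjusted p = 5.61e-05). Several markers of muscle fibres and of other cells moved with the groups. Of 8 slow fibre markers 7 were called higher with genotype, where 4.43% of all genes were higher. In females 8 were called higher, where 15.8% of all genes were higher averaged over genotype and wheel. In FC 5 of 5 erythroid and 5 of 6 measured leukocyte markers were higher than in MC, where 10.3% of all genes were higher. The summed level of 12 liver markers ranged from 6.39 to 3300 CPM over the mice (counts scaled to a common library size, the unit of all levels given here). The insulin genes Ins1 and Ins2 summed to between 9.53 and 20.9 CPM in all 7 MHE mice, to 15.4 CPM in 1 MCE mouse, and to at most 0.442 CPM in the locked mice of either sex and the running females. In running males the Elavl1 difference came with low levels in control mice MCE 13, 10 and 25 (27.8, 30.8 and 40.3 CPM). The other MCE mice lay at 54.4 to 60.9 CPM and the MHE mice at 53.2 to 69.8 CPM. The cause of the low levels in these controls was not tested.

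Together the members took between 2.33% and 3.17% of the counts of a mouse, with a median of 2.81%. Complex I held the largest share, a median of 0.88%, followed by complex V at 0.775%, complex IV at 0.714%, complex III at 0.338% and complex II at 0.101%. On a scale of CPM per kilobase of annotated exon, the highest levels were those of Cox6a2 (2760) and Cox8b (1700), the striated muscle forms of the complex IV subunits 6A and 8, and of Atp5k (1180), a small membrane subunit of ATP synthase. The lowest on that scale were Atp5l (0.799), Cox6b2 (1.07), the testis form of subunit 6B, and Cox4i2 (1.83), the lung form of subunit 4. By CPM without division by length, Atp5g3 (1190) and Atp5a1 (995) followed Cox6a2 (1880). The sources differ on whether a 3' end or a total RNA kit was used, and for a 3' end kit a division by length does not give a level, so the order between genes depends on that. Atp5l, Uqcrh, Ndufb4, Ndufs6 and Cox6c have near-identical processed copies among the rows set aside, and 21 members overlap another gene of the table, 19 of them on the opposite strand, so the counts of these genes are less certain.

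Within groups the members were steady. The median within-group standard deviation of a member was 0.143 on the log2 scale, against 0.31 for all genes tested. Atp5b, the catalytic beta subunit of ATP synthase, varied least (0.082), and Sdhd, a membrane anchor of complex II, varied most (0.721). After group means were removed, a member's level followed the mean of the other members over 56 mice with a median Pearson r of 0.61, and 52 of the 82 members were over 0.5. The median r between pairs of members was 0.37 within a complex and 0.37 between complexes, so members of the same complex were no closer to each other than to the rest. The genes outside the family that followed the members most closely by the same measure were Bola3 (0.87), which acts in iron-sulfur cluster assembly, Mpc2 (0.82), a mitochondrial pyruvate carrier subunit, and Minos1 (0.80), a part of the inner membrane organising complex. These values are descriptive, and the points share library depth and sample handling.

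**Figure D1:**
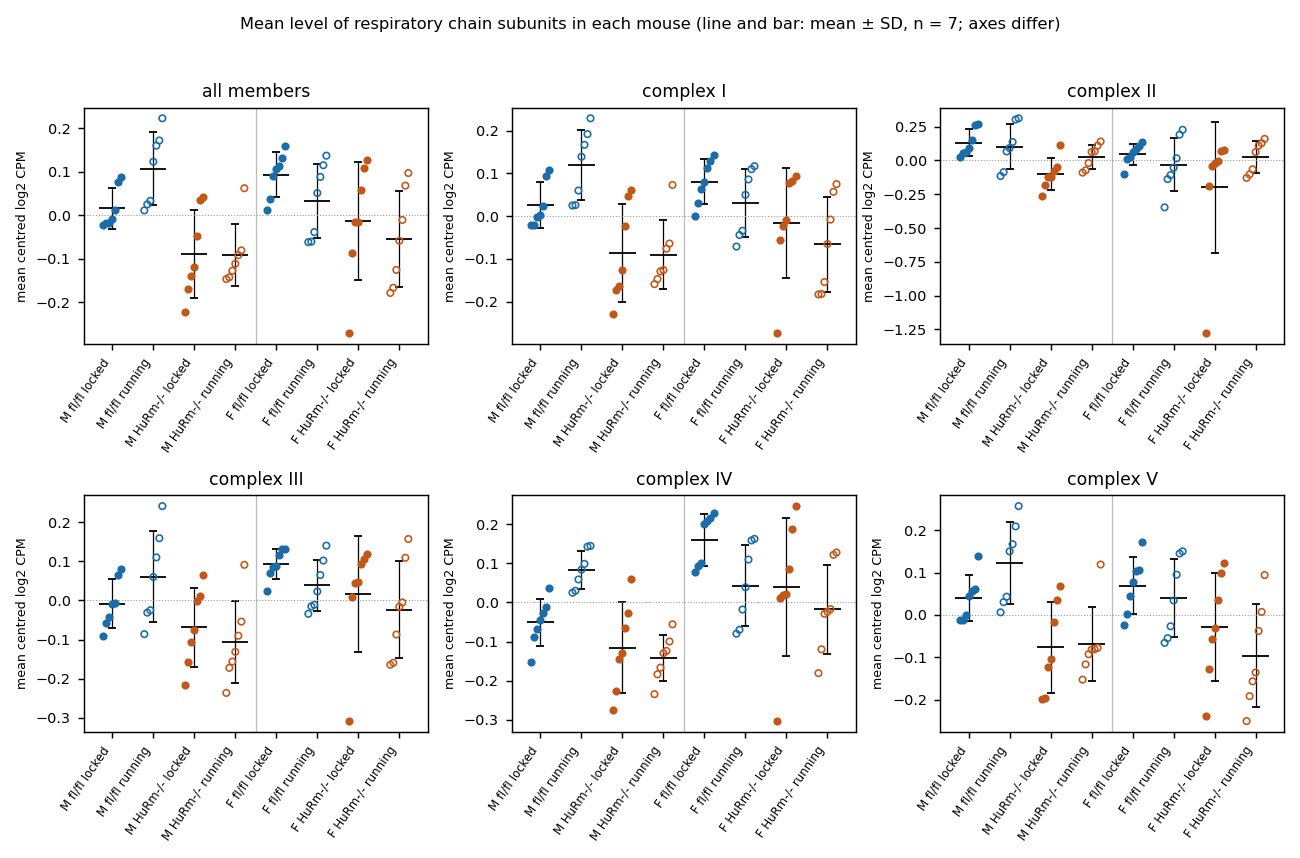
Mean log2 CPM over the members, centred for each gene, for every mouse in the 8 groups (M, male; F, female), for all members and for each complex. Blue stands for HuR fl/fl and orange for mice labelled HuRm-/-, filled points for a locked and open points for a running wheel, and lines with bars for the mean ± SD of 7 mice. Running control males lie at 0.107 ± 0.084 against 0.016 ± 0.047 with a locked wheel, and 1 locked FH mouse lies at -1.279 for complex II.

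The first comparison asked how the family differed in muscle labelled as lacking HuR. Averaged over sex and wheel, 42 of the 82 members fell in the labelled mice and 0 rose, where 7.41% of all genes tested fell and 4.43% rose. The median log2 fold change of the members was -0.109, and that of all genes was 0.014. Of the 82 members, 75 had a negative difference. By complex, 21 of 37 members fell in complex I, 1 of 4 in complex II, 3 of 8 in complex III, 7 of 16 in complex IV and 10 of 17 in complex V. Scaling by library totals alone left 20 members lower and 1 higher with a median of -0.048. The median of all genes was then 0.073, and 2100 genes were called in place of 1695.

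**Figure D2:**
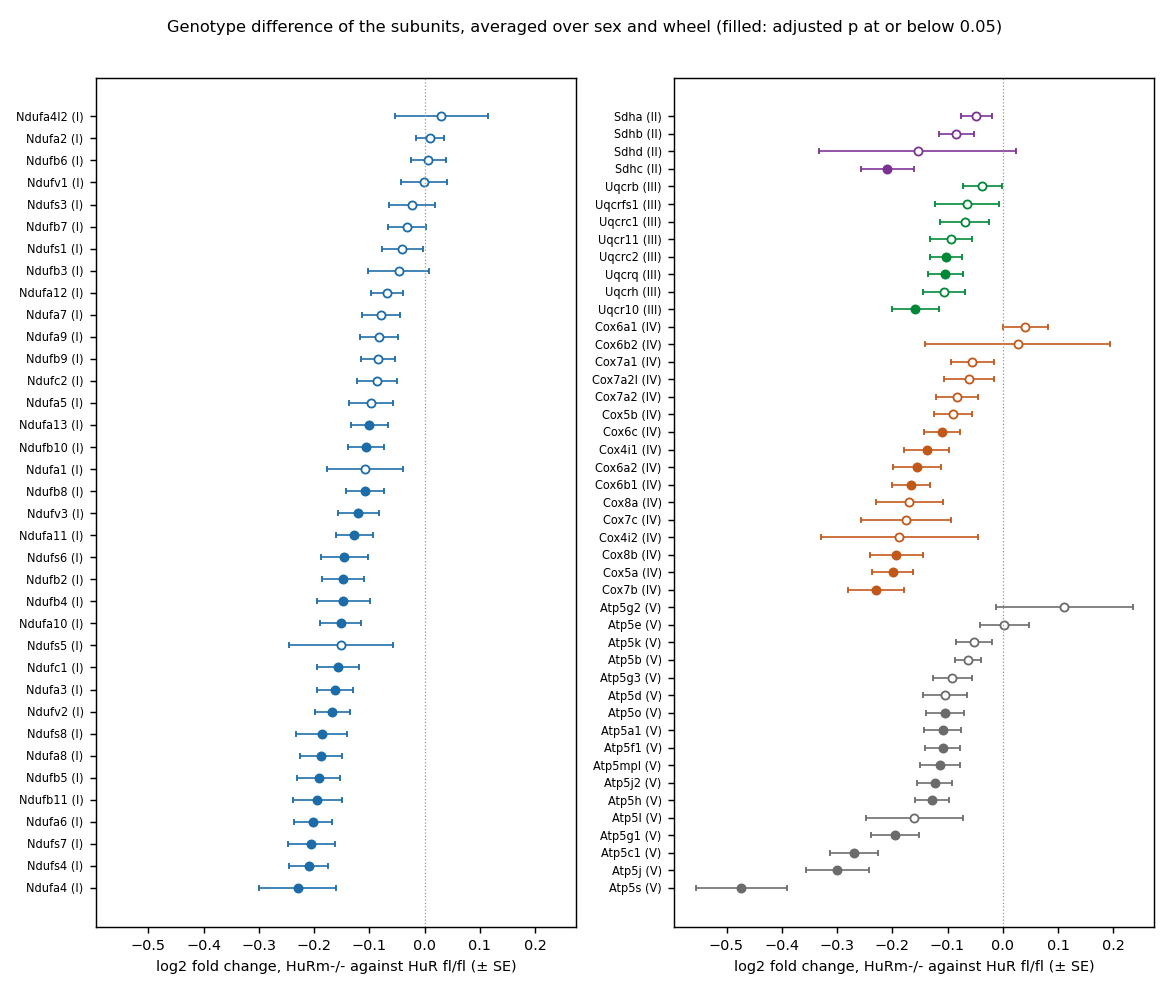
Log2 fold change (± SE) between mice labelled HuRm-/- and HuR fl/fl mice for 81 of the 82 members, averaged over sex and wheel, by complex and with filled points for members past the threshold. Most points lie left of 0, from -0.473 for Atp5s to 0.111 for Atp5g2.

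Large falls were found in single members of complex V, whose median (-0.109) was that of all members. The median was -0.147 in complex IV and -0.12 in complex I. Atp5s, which encodes a coupling factor and is expressed at a low level here, fell by 0.47 ± 0.08 on the log2 scale (limma adjusted p = 5.61e-05), from 6.89 to 12.9 CPM in MC to 5.06 to 7.46 CPM in MH. With a running wheel it lay at 6.21 to 10.6 CPM in MCE and at 4.87 to 8.77 CPM in MHE. Atp5j, coupling factor 6 in the peripheral stalk, fell by 0.30 ± 0.06 (adjusted p = 0.000211). Atp5c1, the gamma subunit of the rotating stalk, fell by 0.27 ± 0.04 (adjusted p = 2.63e-05), and 20 of 28 labelled mice were below every control of the same sex and wheel. For a typical member this count was 10.5 of 28, against 3 for a typical gene, and it comes from the same contrast as the test. Ndufa4, which bears a complex I name although its protein is now placed in complex IV, fell by 0.23 ± 0.07 (adjusted p = 0.0215). Atp5j overlaps Gabpa on the opposite strand. Among the members with the highest mean count in each complex, Ndufb8 fell by 0.11 ± 0.04 (adjusted p = 0.0324) and Cox6a2 by 0.16 ± 0.04 (adjusted p = 0.0119), while Sdhb, Uqcrh and Atp5g3 differed by -0.08 ± 0.03, -0.11 ± 0.04 and -0.09 ± 0.04 and did not pass.

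**Figure D3:**
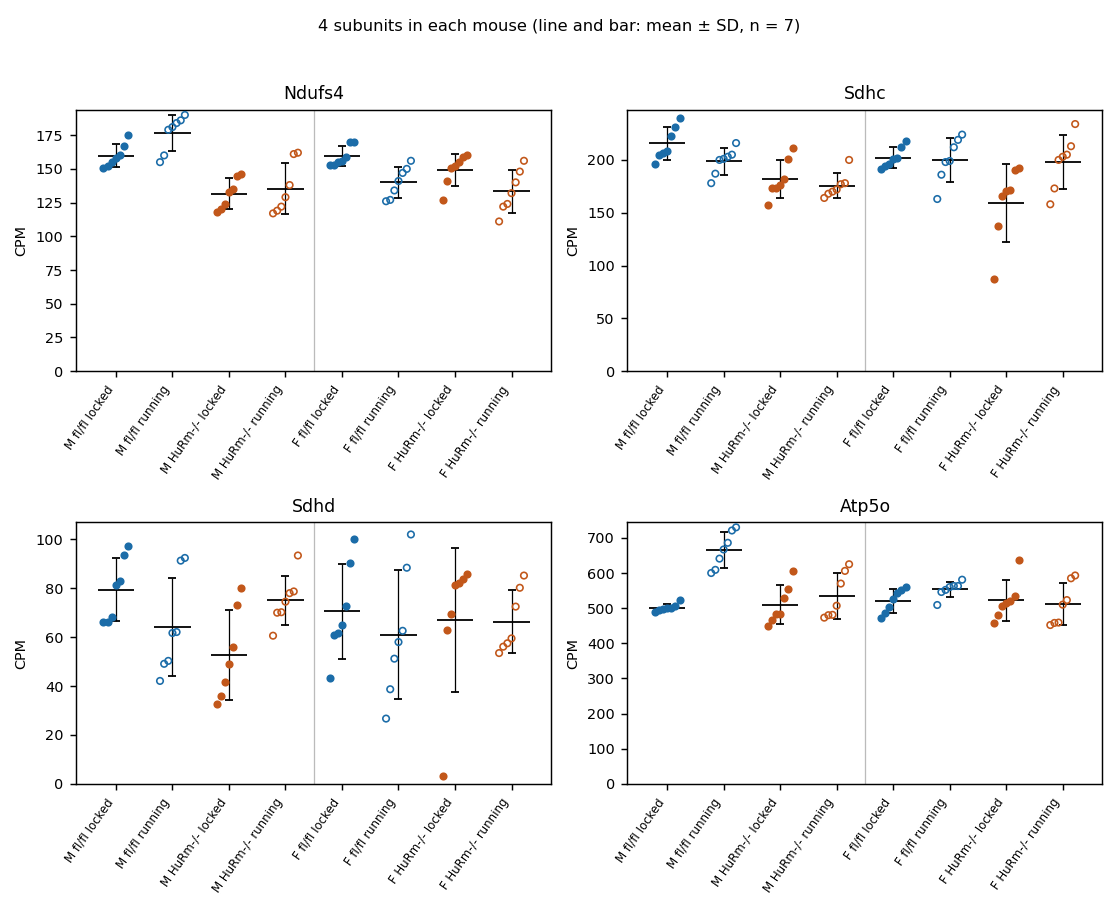
CPM of Ndufs4, Sdhc, Sdhd and Atp5o in each mouse of the 8 groups (M, male; F, female), with the mean ± SD of 7 mice and colours as in the plot of mean levels. Ndufs4 is at 118 to 146 CPM in MH, below all MC mice, Sdhd is at 3.18 CPM in 1 FH mouse, and Atp5o is at 600 to 730 CPM in MCE, above all MC mice.

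The genotype difference was then taken within each sex and wheel condition. In running males 21 members were lower in MHE than in MCE and 0 were higher, with 1.87% of genes lower and 0.754% higher, and the median log2 fold change was -0.203. The largest falls were in Atp5j (-0.49 ± 0.11), Atp5c1 (-0.41 ± 0.09), Ndufs4 (-0.39 ± 0.07), an accessory subunit of complex I needed for its full assembly, Ndufs8 (-0.38 ± 0.09), a core iron-sulfur subunit, and Cox7b (-0.38 ± 0.10), with limma adjusted p between 0.00137 and 0.0287. Ndufs4 lay at 155 to 190 CPM in MCE (median 181) and at 117 to 162 CPM in MHE (median 129), so that the groups overlapped. For 6 members, Ndufa6, Ndufa10, Cox5a, Atp5h, Atp5j and Atp5k, all 7 MHE mice were below all 7 MCE mice, as for 0.391% of genes. These 7 MHE mice are those with insulin transcripts, whose part in the difference was not tested, and the count of members fell to 10 without MCE mouse 10 and 13 without MHE mouse 22, and rose to 33 without MHE mouse 04. With sample quality weights 44 members were lower. MCE mouse 10 is among the control males low in Elavl1 (30.8 CPM), and the part of this was not tested.

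With a locked wheel, 3 members were lower in MH than in MC and 0 higher (0.831% of genes lower, 0.321% higher). Among them were Atp5s (-0.64 ± 0.16, limma adjusted p = 0.0372) and Ndufs4 (-0.28 ± 0.07, adjusted p = 0.0396). Ndufs4 lay at 151 to 175 CPM in MC and at 118 to 146 CPM in MH, without overlap. All 3 calls were lost on leaving out MC mouse 16, 19, 20 or 29 or MH mouse 09, 11, 15, 23 or 24, and 1 was left without MC mouse 31. In locked females Sdhc alone was lower in FH than in FC (-0.39 ± 0.10, adjusted p = 0.0483), with 0.258% of genes lower and 0.126% higher, and this call was lost without FC mouse 12, 15, 16, 18, 20 or 33 or FH mouse 13, 17 or 34, while 2, 3, 5 and 2 members were called without FH mouse 14, 19, 30 and 31. Scaling by library totals left 1 member higher and 0 lower in that comparison, with a median of -0.056 for the members and 0.033 for all genes. In running females 0 members and 0% of genes were called in either direction by limma. Of the members, 13 had an unadjusted p under 0.05 there, edgeR and DESeq2 also called 0, and the median log2 fold change was -0.089. The difference of the genotype effect between the sexes called 0 members with a locked wheel (4 at an unadjusted p under 0.05, 0% of genes in either direction) and 0 with a running wheel (16 at an unadjusted p under 0.05, 0% of genes higher and 0.014% lower), and edgeR and DESeq2 called 0 in both, so a difference between the sexes in the genotype effect was not shown.

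Beside these falls, 7 of 8 slow fibre markers rose with genotype, among them Tnnc1 (0.72 ± 0.11), Tnnt1 (0.57 ± 0.10) and Myl2 (0.56 ± 0.10), and their summed level was 933 to 1290 CPM in MC and 962 to 2550 CPM in MH. Of 10 fast fibre markers 2 fell, Myl1 and Tnnc2. Myl1 is the gene of the locus that carries Cre, and the part of that allele in its fall was not tested. The part of fibre type in the members' difference was not tested. Other genes of the pathway are set beside the 7.41% of all genes that fell and the 4.43% that rose. Of 8 mitochondrially encoded subunits measured, 6 fell with genotype and 0 rose, by 0.18 to 0.28 on the log2 scale, led by mt-Nd2 (-0.28 ± 0.05). Of 50 assembly factors 10 fell and 0 rose, led by Timmdc1 (-0.63 ± 0.08), Lyrm7 (-0.43 ± 0.10) and Coa5 (-0.28 ± 0.05), which act on complexes I, III and IV. Of 17 carriers and enzymes that feed the chain 7 fell and 0 rose, led by the ubiquinone synthesis genes Coq2 (-0.31 ± 0.05) and Coq9 (-0.28 ± 0.05), and of 13 genes of the tricarboxylic acid cycle 5 fell and 0 rose, among them Suclg2 (-0.28 ± 0.08) and Dlst (-0.27 ± 0.05). Of 11 regulators 3 fell and 0 rose, Tfb2m, Ppargc1a and Esrra (-0.24 ± 0.08, -0.22 ± 0.05 and -0.17 ± 0.06).

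The next comparison asked how the family responded to 10 weeks with a running wheel. In control males 12 members rose and 0 fell, where 1.49% of genes rose and 1.75% fell. Complex V gave 5 of them and complex I also 5. Atp5o, which joins the stalk of ATP synthase to its head, rose most, from 489 to 522 CPM (median 500) with a locked wheel to 600 to 730 CPM (median 667) with a running wheel, a log2 fold change of 0.40 ± 0.07 (limma adjusted p = 0.000256), and the groups did not overlap. Sdhb, the iron-sulfur subunit of complex II, rose from a median of 404 to 526 CPM (0.33 ± 0.07, adjusted p = 0.00227). Ndufa5 (0.34 ± 0.08), Ndufs8 (0.33 ± 0.09) and Atp5j2 (0.30 ± 0.06) also rose, with adjusted p of 0.00683, 0.0312 and 0.00427. In complex IV 14 of 16 members had a positive difference with a median of 0.126, and 0 passed. For 6 members all MCE mice were above all MC mice, as for 0.454% of genes. The summed slow fibre markers had a median of 983 CPM in MC and 1340 CPM in MCE and the leukocyte markers 65.3 and 95.1 CPM, with 0 of 8 and 0 of 6 called, and their part was not tested. The count of 12 became 5, 7 and 6 without MCE mouse 10, 13 and 25, and 6, 7, 7 and 6 without MC mouse 17, 18, 19 and 20. MCE mice 10, 13 and 25 were also the lowest of their group in Elavl1 (30.8, 27.8 and 40.3 CPM). The part of this in the members' rise was not tested.

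Control females gave another pattern. With a running wheel 2 members rose and 13 fell, with 4.5% of genes rising and 4.23% falling, and under library totals alone 5 rose and 11 fell. Uqcrc1, a core protein of complex III (chr9:108936633-108949623, plus strand), rose from 283 to 329 CPM (median 299) to 351 to 451 CPM (median 401), by 0.40 ± 0.09 (limma adjusted p = 0.00253), and Atp5b rose by 0.19 ± 0.05 (adjusted p = 0.01). The largest falls were in Cox8a (-0.48 ± 0.13, adjusted p = 0.00985), the general form of subunit 8, Atp5j (-0.39 ± 0.12, adjusted p = 0.0239), Cox7b (-0.35 ± 0.10, adjusted p = 0.0243), Cox6c (-0.34 ± 0.07, adjusted p = 0.000787) and Ndufb11 (-0.33 ± 0.09, adjusted p = 0.0115). Cox6c lay at 1060 to 1310 CPM in FC (median 1150) and at 877 to 1030 CPM in FCE (median 912), with no overlap. For 8 members all FCE mice were below all FC mice, as for 1.12% of genes, and Uqcrc1 alone was above in all 7, as for 1.1% of genes. In the same comparison 4 of 5 erythroid, 3 of 6 leukocyte and 5 of 10 adipocyte markers fell, and the erythroid sum went from 1750 to 6390 CPM in FC to 1050 to 3030 CPM in FCE. The part of these cells in the members' fall was not tested.

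The difference between the sexes in the wheel response of controls was tested directly. The response differed for 23 members, with 22 more negative in females and 1, Uqcrc1, more positive (0.39 ± 0.12, limma adjusted p = 0.0375), where 4.41% of genes were more negative and 4.33% more positive. The median over the members was -0.157, against -0.017 for all genes. The largest differences were in Cox8a (-0.73 ± 0.17, adjusted p = 0.00416), Cox7b (-0.61 ± 0.14, adjusted p = 0.00407), Atp5j2 (-0.50 ± 0.09, adjusted p = 0.000332), Ndufc2 (-0.49 ± 0.10, adjusted p = 0.00139) and Cox7a2 (-0.47 ± 0.11, adjusted p = 0.00345). Atp5j2, the f subunit of the membrane part of ATP synthase, went from a median of 597 CPM in MC to 730 CPM in MCE, and from 706 CPM in FC to 641 CPM in FCE. Complex IV had the largest median difference, -0.239 with 7 of 16 members called, followed by complex III (-0.20, 3 of 8), complex V (-0.193, 4 of 17) and complex I (-0.123, 8 of 37), while that of complex II was 0.033 with 1 of 4 called. The mean level of the complex IV members went from -0.051 ± 0.060 to 0.084 ± 0.049 in males and from 0.161 ± 0.066 to 0.043 ± 0.103 in females, in centred log2 CPM (SD, n = 7). The same comparison also called 4 of 5 erythroid and 3 of 6 leukocyte markers more negative in females, and 3 of 10 fast fibre markers more positive, and their part was not tested. The same FC mice enter this test, FCE against FC and FC against MC, so these results are not independent of each other.

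**Figure D4:**
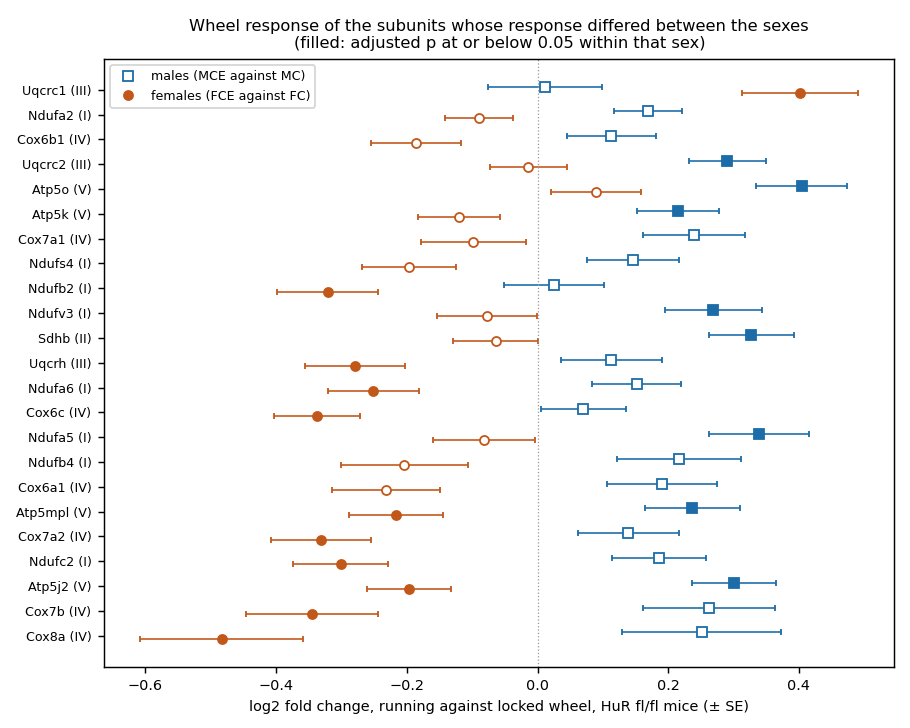
Log2 fold change (± SE) between running and locked wheel in HuR fl/fl males (blue squares) and females (orange circles) for the 23 members whose response differed between the sexes, with filled symbols for members past the threshold within that sex. Male values lie right of female values for all members shown but Uqcrc1.

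In the mice labelled HuRm-/- the male response was small. Between MHE and MH 0 members were called, with 0.0209% of genes higher and 0.0209% lower. By limma 5 members had an unadjusted p under 0.05, edgeR and DESeq2 called 0, and the median was -0.004. The difference of this response from that of control males had a median of -0.121 with 68 of 82 members negative, and called 0 members, 16 of them with an unadjusted p under 0.05 (0.0209% of genes more positive and 0.014% more negative). For that difference edgeR called 0 members, DESeq2 1 and a fit with sample quality weights 2, all more negative. In females 3 members rose and 9 fell between FH and FHE, with 2.05% of genes rising and 1.8% falling. Sdhc (0.35 ± 0.10, adjusted p = 0.023), Atp5g3 (0.29 ± 0.07, adjusted p = 0.0128), which encodes a copy of the c subunit, and Atp5b (0.17 ± 0.05, adjusted p = 0.0314) rose, and Ndufb4 (-0.34 ± 0.10), Cox7a2l (-0.33 ± 0.09), Ndufa2 (-0.30 ± 0.05), Cox6c (-0.30 ± 0.07) and Ndufb2 (-0.28 ± 0.08) fell most. These counts rested on a few mice. Without FH mouse 34 they came to 5 members, without FH mouse 13 to 19, without both to 18 lower and 0 higher, and without FH mouse 14 or FHE mouse 02 or 22 to 6, 6 and 7, and a fit of the 2 groups alone called 1. Library totals turned the split to 8 higher and 4 lower and the median from -0.042 to 0.02. The median of all genes moved from 0.015 to 0.083 with it, and 761 genes were called in place of 551.

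The difference of the wheel response between labelled and control females called 0 members by limma, edgeR and DESeq2 (10 at an unadjusted p under 0.05, 0% of genes in either direction). Between the sexes, the wheel response of the labelled mice differed for 1 member, Ndufa2 (-0.27 ± 0.07, adjusted p = 0.0444), with 0.663% of genes more negative and 0.684% more positive. This call was lost without FH mouse 14, 17, 31 or 34, FHE mouse 02, 07, 08, 10 or 22, MH mouse 08, 09, 11, 15 or 24, or MHE mouse 01, 02, 04 or 22, and 5, 2 and 3 members were called without FH mouse 13, FHE mouse 03 and MH mouse 12. Averaged over the 4 pairs of groups, a running wheel raised 5 members and lowered 4 (3.42% of genes higher, 2.54% lower). Atp5g3 (0.15 ± 0.04), Atp5o (0.13 ± 0.03), Atp5b (0.13 ± 0.02), Ndufa10 (0.12 ± 0.04) and Ndufb10 (0.12 ± 0.03) rose, and Ndufb2 (-0.16 ± 0.04), Ndufb11 (-0.16 ± 0.04), Cox6c (-0.15 ± 0.03) and Ndufa13 (-0.13 ± 0.03) fell, with adjusted p between 0.000502 and 0.0336. Ndufb2, Ndufb11 and Cox6c differed by -0.321, -0.332 and -0.337 in FCE against FC, and by -0.283, -0.19 and -0.295 in FHE against FH. In males they differed by 0.025, -0.021 and 0.07 in MCE against MC, and by -0.061, -0.076 and -0.024 in MHE against MH. Ndufa13 differed by -0.015 in MCE against MC, -0.163 in MHE against MH, -0.088 in FCE against FC and -0.234 in FHE against FH. The average came to 15 members without FH mouse 34. Under library totals 21 rose and 1 fell, and the members' median moved from -0.004 to 0.048. The median of all genes moved from 0.009 to 0.063 with it, and 1580 genes were called in place of 854. In the same average Ppargc1a (0.16 ± 0.05) and Ppargc1b (0.31 ± 0.05), coactivators of mitochondrial genes, rose. By pair of groups, Ppargc1a was called in FHE against FH alone (0.356 ± 0.098, limma adjusted p = 0.0245). It differed by 0.077 ± 0.094 in MCE against MC, 0.026 ± 0.095 in MHE against MH and 0.16 ± 0.099 in FCE against FC.

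The last set of comparisons was between the sexes. Averaged over genotype and wheel, 17 members were higher and 11 lower in females, shares of 20.7% and 13.4%, where 15.8% of all genes were higher and 17.1% lower, so the members' shares were close to those of all genes. Under library totals the split was 44 higher and 4 lower, and under upper-quartile factors 26 and 8. The median was then 0.105 for the members and 0.081 for all genes under library totals. Under upper-quartile factors it was 0.05 and 0.026, where the main fit gave 0.03 and 0.004. The higher members were led by complex IV, with Cox6b2 (0.79 ± 0.17, limma adjusted p = 0.000148), Cox6a1 (0.30 ± 0.04, adjusted p = 2.08e-08), Cox7b (0.22 ± 0.05, adjusted p = 0.000506), on the X chromosome, and Cox6c (0.20 ± 0.03, adjusted p = 2.09e-06), followed by Ndufc1 of complex I (0.19 ± 0.04, adjusted p = 3.52e-05). Cox6b2 was near the limit of detection, at 0.278 to 1.78 CPM in MC and 0.725 to 1.74 CPM in FC. Cox7b and Cox6c were not higher in females among running controls, with means of 432 and 931 CPM in FCE and 470 and 953 CPM in MCE. In running labelled mice their means were 399 and 898 CPM in FHE and 360 and 838 CPM in MHE. The lower members were led by Ndufv1 (-0.23 ± 0.04, adjusted p = 7.91e-06), which binds NADH, Sdha (-0.17 ± 0.03, adjusted p = 1.76e-06), which binds succinate, Atp5d (-0.17 ± 0.04, adjusted p = 0.000654), Ndufa10 (-0.17 ± 0.04, adjusted p = 0.000257) and Uqcrc1 (-0.15 ± 0.04, adjusted p = 0.00709).

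The members higher in females were on the median shorter than those lower in females. Counted as the bases covered by any annotated exon, the median length was 1092 bases for the 17 higher members and 3135 bases for the 11 lower ones, with overlapping ranges of 616 to 3567 and 861 to 4237 bases, and over the 82 members the Spearman correlation of the sex difference with length was -0.43. Over the 14293 genes tested that have a length it was -0.0244, and the median was 3983 bases for genes higher and 4942 bases for genes lower in females. The correlation is across genes, which share libraries and are not independent, and the sources differ on the library kit, which bears on how counts depend on length. The part of transcript length in the sex difference was not tested.

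**Figure D5:**
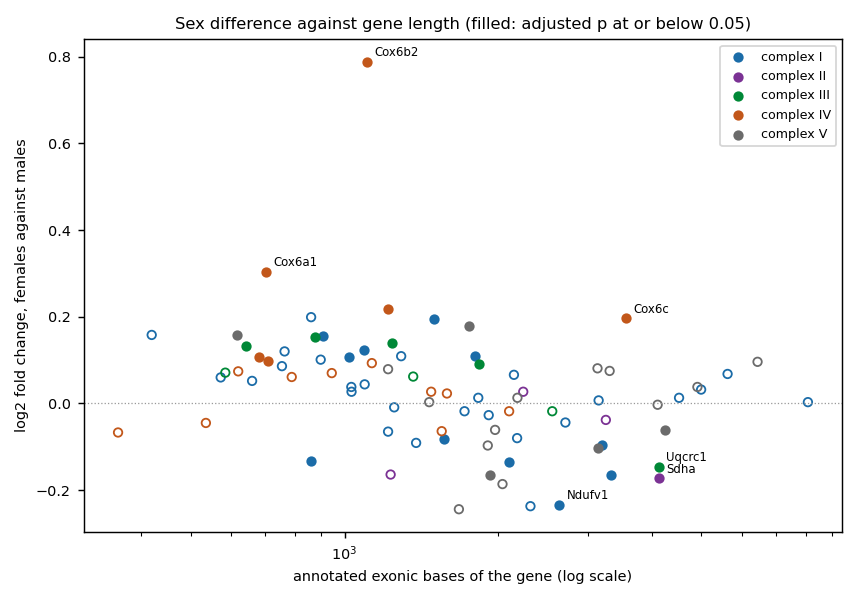
Log2 fold change between females and males, averaged over genotype and wheel, against the annotated exonic bases of each of the 82 members on a log scale, coloured by complex and filled where past the threshold. Members higher in females have a median of 1092 bases and those lower in females a median of 3135 bases, with overlapping ranges.

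Within conditions, 18 members were higher and 5 lower in FC than in MC (10.3% of genes higher, 11.2% lower), with 35 and 4 under library totals. In that scaling the median was 0.183 for the members and 0.094 for all genes, against 0.094 and 0.007 in the main fit. Cox6a1 went from 33.2 to 46 CPM (median 38.9) in MC to 47.7 to 63.3 CPM (median 57.3) in FC, without overlap (0.54 ± 0.08, limma adjusted p = 2.5e-06). Cox7b (0.49 ± 0.10), Cox8a (0.43 ± 0.12), Cox6c (0.37 ± 0.07) and Ndufc2 (0.32 ± 0.07) followed, and Uqcrc1 (-0.34 ± 0.09), Ndufv1 (-0.28 ± 0.08), Atp5d (-0.27 ± 0.08), Sdha (-0.22 ± 0.06) and Ndufa10 (-0.20 ± 0.07) were lower. In the same comparison 8 of 10 adipocyte, 5 of 5 erythroid and 5 of 6 leukocyte markers were higher, with adipocyte sums of 264 to 437 CPM in MC and 400 to 719 CPM in FC, erythroid sums of 746 to 1940 and 1750 to 6390 CPM, and leukocyte sums of 42.8 to 78.8 and 92.9 to 221 CPM. Slow fibre sums were 933 to 1290 CPM in MC and 1300 to 1840 CPM in FC, without overlap. Fast fibre sums had medians of 119000 CPM in MC and 96600 CPM in FC. The part of these cells and of fibre type was not tested. Between FH and MH 17 were higher and 6 lower (9.08% and 10.2% of genes), with 31 and 2 under library totals and 8 in all in a fit of the 2 groups alone, led by Cox7b (0.37 ± 0.10), Cox6c (0.36 ± 0.07), Cox6a1 (0.34 ± 0.08), Atp5e (0.34 ± 0.09) and Uqcrh (0.32 ± 0.08). The falls were led by Uqcrc1 (-0.30 ± 0.09), Ndufa8 (-0.25 ± 0.08), Ndufv1 (-0.24 ± 0.08), Sdha (-0.22 ± 0.06) and Ndufa10 (-0.22 ± 0.07). Library totals gave FH against MH a median of 0.159 for the members and 0.06 for all genes, against 0.075 and -0.022 in the main fit. With a running wheel the control females gave 0 higher and 12 lower members than the control males (3.09% and 4.57% of genes), led by Ndufs4 (-0.34 ± 0.07, adjusted p = 0.000732), Ndufv3 (-0.31 ± 0.07), Ndufb4 (-0.30 ± 0.10), Cox7a1 (-0.30 ± 0.08) and Atp5o (-0.26 ± 0.07), and under library totals 2 were higher and 7 lower. That count was 7 without FCE mouse 27 or 28 or MCE mouse 10. Between FHE and MHE Cox6b2 alone was higher (1.12 ± 0.32, adjusted p = 0.0224) with 2.3% of genes higher and 3.26% lower, and this call was lost without FHE mouse 02 or MHE mouse 01, 04 or 06, while 2 members were called without FHE mouse 10 or MHE mouse 02.

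Complex IV has the best known pairs of forms. The log2 ratio of Cox6a2 to Cox6a1 was 5.61 ± 0.23 in MC and 5.19 ± 0.20 in FC (SD, n = 7), ranges of 5.34 to 5.95 and 5.02 to 5.59 that overlapped. Cox8b over Cox8a was 4.57 ± 0.27 in MC and 4.07 ± 0.24 in FC, and Cox7a1 over Cox7a2 was -0.69 ± 0.13 and -0.94 ± 0.15. With a running wheel the control females moved to 5.36 ± 0.08, 4.39 ± 0.25 and -0.71 ± 0.17 for these ratios. By CPM the striated muscle forms were above the other forms of the 6A and 8 pairs in every group and Cox7a1 was below Cox7a2, but per kilobase Cox7a1 (546) was above Cox7a2 (510), so the order of the 7A pair turns with the scale. For the c subunit of ATP synthase, Atp5g3 over Atp5g1 was 2.44 ± 0.16 in MC and 2.74 ± 0.15 in MCE, and 2.47 ± 0.19 in FH and 2.86 ± 0.23 in FHE.

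In complex II all 4 subunits had a negative genotype difference, and 1 passed. Sdha, the flavoprotein, was lower in females, and its genotype difference did not pass (-0.05 ± 0.03, limma adjusted p = 0.304). Sdhb rose with the wheel in control males. Sdhc, a membrane anchor (chr1:171127165-171150603, minus strand), fell with genotype (-0.21 ± 0.05, adjusted p = 0.00192), from 196 to 240 CPM (median 208) in MC to 157 to 211 CPM (median 176) in MH, and from 191 to 218 CPM (median 201) in FC to 87.1 to 192 CPM (median 171) in FH. With a running wheel its median was 201 CPM in MCE and 172 CPM in MHE, and 199 CPM in FCE and 203 CPM in FHE. Sdhd, the other anchor, was at 3.18 CPM in FH mouse 34 and spread from 26.7 to 102 CPM over the other mice, and its genotype difference of -0.15 ± 0.18 did not pass. In that mouse Sdhc (87.1 CPM) and Cox7c (117 CPM) were also the lowest of all 56 mice, while Uqcrc1 (441 CPM) and Atp5o (638 CPM) were the highest of the group.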

How the data were processed

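The authors deposited a table of raw counts per gene for 56 libraries of gastrocnemius RNA, with Ensembl identifiers. The submitters' notes name GRCm38, R 4.0.3 and edgeR 3.38.4. The sources differ on the library kit (a stranded total RNA kit in the paper, a 3' end kit in the labels), and the aligner and counter are not given in the sources used here. Symbols, positions and exonic lengths were read from GENCODE M21 (15503 of 15539 genes matched).

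Counts were filtered with edgeR's filterByExpr, scaled with TMM and fitted once for all 56 mice with voom and limma (R 4.3.3, edgeR 4.0.16, limma 3.58.1), with a mean per group and contrasts between them. A gene was called at an adjusted p (Benjamini-Hochberg, 14321 genes) of at most 0.05. The fit was tested on simulated data, with genes drawn independently and changes larger than most differences of the members. That test does not bear on differences of the size reported here. CPM values use TMM-scaled totals. Centred levels used a prior count of 2. Named members are all those called where there were at most 10, otherwise the 5 largest rises and the 5 largest falls, with the paired forms, the most abundant member of each complex and Sdha to Sdhd, and up to 3 genes of each other list by size of change. Of the members, 1 is counted but not reported here by name. The members, lists and tests were chosen with earlier results of these data known. Mice are separate animals by their labels. Their numbers do not pair groups: 22 pairs of mice share a number across groups, all between the sexes, and 8 of them had deviations correlated over 0.1. Replicates differed beyond counting noise in all 168 pairs within groups (chi-square per degree of freedom 3.69 to 54.2). Alternatives were DESeq2 1.42.0 size factors and tests, edgeR's quasi-likelihood test, other scalings and filters, sample quality weights, fits of the compared groups alone, the mouse number as a block and leaving out each mouse. Depth (6639782 to 21633091 counts) limits members of a few CPM such as Cox6b2.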

Additional observations from a re-analysis of the deposited data

Results flagged for a closer look

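A mouse far from the other 6 of its group (a gap past Dixon's 95% limit) was found in 21 of 208 groups of values examined, where chance alone gives about 5%. FH mouse 34 stood apart for the mean of complex II (-1.279 in centred log2 CPM), Sdhd (3.18 CPM), Uqcrc1 (441 CPM) and Atp5o (638 CPM). FH mouse 13 was the lowest for the means of complex I (-0.274), complex III (-0.308) and complex IV (-0.304), for Cox7a2 (352 CPM) and for Atp5mpl (309 CPM). MHE mouse 04 was the highest for the means of all members (0.062), of complex I (0.073) and of complex V (0.119), for Sdha (376 CPM), Sdhc (200 CPM) and Atp5b (1060 CPM). Single values apart from their group were Sdha in MH mouse 09 (292 CPM), Uqcrh in FC mouse 12 (954 CPM), Atp5j2 in MCE mouse 13 (630 CPM) and MH mouse 12 (707 CPM), Atp5mpl in FC mouse 15 (429 CPM) and Atp5s in FHE mouse 03 (8.71 CPM).

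The wheel response differed between the sexes for 23 members in HuR fl/fl mice and for 1 member in the mice labelled HuRm-/-, by a test of the difference itself. Whether these 2 counts differ from each other was not tested.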

How the results depend on the processing

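The members' median kept its sign under all alternatives run for the genotype average, the sex difference in the wheel response of controls and the sex comparison of locked controls. Every alternative kept the sign of all 86 named differences, and 236 of 3188 values lost their call. Only the larger shifts in the counts of members called are listed next. Smaller ones include 53 for the genotype and 42 for the sex average with sample quality weights. They also include 33 for FH against MH and 15 for MHE against MCE under library totals. Of the larger shifts, library totals alone moved the wheel, genotype and sex averages to 22, 21 and 48, MCE against MC to 21, MH against MC to 0, FC against MC to 39, FHE against MHE to 8 and the sex difference of the wheel response in labelled mice to 2, and it left the median log2 fold change of all genes between -0.04 and 0.094. Upper-quartile factors gave 0 for MH against MC, 0 for FH against FC and 6 for FCE against MCE, and DESeq2 size factors gave 2 for FH against FC. Sample quality weights gave 18 for the wheel average, 44 for MHE against MCE, 0 for FH against FC, 2 for FHE against MHE, 2 for the genotype difference of the wheel response in males and 2 for its sex difference in labelled mice. No filter gave 0 for the last of these, and 10 counts in every sample gave 3 for FH against FC and 0 for FHE against MHE. edgeR gave 0 for FH against FC, for FHE against MHE and for the sex difference in labelled mice, and DESeq2 gave 3 for FH against FC, 0 for FHE against MHE and 1 for the genotype difference of the wheel response in males. Fits of the compared groups alone gave 24 for FCE against FC, 1 for FHE against FH, 1 for MH against MC, 0 for FH against FC, 38 for FC against MC, 8 for FH against MH and 0 for the sex difference in labelled mice. Without FH mice 13 and 34 together, chosen after seeing the data, the counts were 17 for the wheel average, 0 for FH against FC, 36 for FH against MH and 5 for the sex difference in labelled mice. The cause of these shifts was not tested.

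Leaving out each mouse gave 7 to 15 members for the wheel average, 36 to 47 for genotype, 25 to 35 for sex, 5 to 13 for MCE against MC, 10 to 16 for FCE against FC, 5 to 19 for FHE against FH, 0 to 4 for MH against MC, 10 to 33 for MHE against MCE, 0 to 5 for FH against FC, 17 to 25 for FC against MC, 7 to 13 for FCE against MCE, 17 to 34 for FH against MH, 0 to 2 for FHE against MHE, 16 to 25 for the sex difference of the wheel response in controls and 0 to 5 for that in labelled mice. With the mouse number as a replicate block (estimated correlation 0.0222) the counts were 42 for the genotype average and 25 in place of 23 for the sex difference in controls, and 0 calls were lost.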

Other observations

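Of the 8 measured mitochondrial subunits, 6 were lower in females and 1, mt-Nd6, was higher (0.67 ± 0.10, limma adjusted p = 1.29e-07), averaged over genotype and wheel, where 17.1% of all genes were lower and 15.8% higher. Between FCE and FC 4 of the 8 fell, where 4.23% of all genes fell. The assembly factor Ndufaf5 was higher in females (1.02 ± 0.05, adjusted p = 1.11e-26), where the largest difference of a member was 0.79.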
